A study of Mus musculus with 8 samples.

Results

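The Bcl2 family genes described here are Bcl2, Bcl2l1, Mcl1, Bax, Bak1, Bcl2l11, Bid, Bad, Bbc3 and Pmaip1, taken by gene name from the deposited count tables. Of these 10 genes, 9 were found in both tables, which share 17893 genes, and Bak1 is not analysed here. Their proteins decide whether the outer membrane of the mitochondrion is breached, the step that commits a cell to intrinsic apoptosis. Bcl2, Bcl2l1 (which encodes Bcl-xL) and Mcl1 are pro-survival members that hold the pore-forming effectors Bax and Bak1 in check, and the BH3-only members Bcl2l11 (Bim), Bid, Bad, Bbc3 (Puma) and Pmaip1 (Noxa) bind and neutralise the pro-survival proteins or activate the effectors. Puma and Noxa are classic products of p53 target genes, Bim is a target of Foxo factors and a main trigger of death after cytokine withdrawal in blood cells, and hematopoietic stem cells depend on Mcl1.

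The tested libraries came from the long-term type of hematopoietic stem cell (LT-HSC), able to renew the blood for life, and from multipotent progenitors (MPP), their shorter-lived offspring, both sorted by flow cytometry from the bone marrow of mice labelled as strain CD57BL/6 and 6 months old. The mice had been transplanted 20 weeks earlier with bone marrow of Tet1 knockout (KO) or wild-type (WT) mice. Tet1 encodes an enzyme that oxidises 5-methylcytosine in DNA. Each population had a KO and a WT group of 2 poly(A) RNA libraries, made from 10000 LT-HSC or 100000 MPP. The Tet1 allele, the sort gates, the sex of the mice, the recipients' treatment and the number of animals per library are not stated in the labels, so p-values measure the spread between these libraries.

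Several features of the libraries bear on every KO against WT value. Total counts lay between 4976459 and 5479731 for LT-HSC libraries and between 11928659 and 12504581 for MPP libraries. Tet1 itself was counted 336 and 379 times in LT-HSC KO and 332 and 428 times in LT-HSC WT, a log2 fold change of -0.09 (edgeR quasi-likelihood test, adjusted p = 0.765), while MPP KO gave 765 and 855 and MPP WT 1207 and 1323, a log2 fold change of -0.62 (adjusted p = 0.0282). Gene-level counts do not check a deletion that leaves part of the transcript, so the genotype is taken from the labels, and the LT-HSC KO libraries are the libraries labelled KO. Genes of 100 kb or more that were nearly silent in WT received 0.265 to 0.288 counts per kb of gene span in LT-HSC KO, against 0.00329 to 0.00638 in LT-HSC WT. In MPP the same rate was 0.0129 to 0.0185 in KO and 0.00437 to 0.00779 in WT. The genes were chosen by their low WT counts, so the WT rate is low by that rule and its gap to the KO rate is not a test. The KO against WT value of each member in LT-HSC is given with and without reads at these rates. The fit without them repeats the filter on low counts and the scaling between libraries, so a member with few such reads can shift too. Summed erythroid marker levels were 3546 to 4360 counts scaled to the library total (CPM) in LT-HSC KO against 826 to 937 CPM in LT-HSC WT (10 of 11 genes higher), with none at 0. Bone and endothelial stroma markers summed to 536 to 737 CPM in LT-HSC KO against 98.7 to 101 CPM in LT-HSC WT (8 of 10 higher), and Bglap and Cxcl12 were at 0 in both LT-HSC WT libraries. LT-HSC identity markers summed to 1399 to 1412 CPM in LT-HSC KO against 2032 to 2044 CPM in LT-HSC WT (5 of 11 lower). Megakaryocyte genes summed to 253 to 302 CPM in LT-HSC KO against 697 to 824 CPM in LT-HSC WT (5 of 6 tested lower, median log2 fold change -1.37). B lineage and antibody genes summed to 168 to 182 CPM in LT-HSC KO against 285 to 310 CPM in LT-HSC WT. T and NK genes summed to 21.5 to 25.5 CPM in LT-HSC KO against 67.9 to 73.7 CPM in LT-HSC WT. For granulocyte and monocyte genes this was 136 to 178 CPM in LT-HSC KO and 176 to 264 CPM in LT-HSC WT. Their calls went both ways, at 3 higher and 3 lower of 8 tested, 2 and 2 of 4, and 5 and 1 of 8. In MPP, erythroid genes summed to 999.9 to 1113 CPM in KO and 716 to 803 CPM in WT (5 of 11 higher), B lineage and antibody genes summed to 5135 to 6840 CPM in KO and 2695 to 3144 CPM in WT (3 of 8 higher), and granulocyte and monocyte genes to 2111 to 2129 CPM in KO and 1268 to 1295 CPM in WT (5 of 10 higher). The 4 measured Y-linked genes were lower in KO in both populations, at summed levels of 12.3 to 14.4 CPM in LT-HSC KO against 143 to 177 CPM in LT-HSC WT and of 2.88 to 5.56 CPM in MPP KO against 166 to 174 CPM in MPP WT, so the sex of the cells and the genotype cannot be told apart. The part of these differences in the results below was not tested, beyond the values given beside them.

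Tet1 acts on methylated CpG sites. Counted as letters, methylated or not, CpG was above the median of all genes in each promoter window used here. RefSeq promoter windows (GRCm38.p6, 250 bases before to 50 bases after the start) were used for 9 of the 10 members, all but Pmaip1. They held 44 CpG in Bcl2, 34 in Bbc3, 33 in Mcl1, 27 in Bcl2l11, 27 in Bad, 22 in Bcl2l1, 22 in Bid, 19 in Bax and 11 in Bak1, against a median of 7 and quartiles of 3 and 20 over the windows of 27025 genes. The Bcl2 window had more CpG than 97.8% of genes and the Bak1 window more than 58.1%. Shown here are the windows of 4 members, 5′ to 3′ on the gene's strand with each CpG in capitals. This choice is not the set of members that passed. Bcl2l11 did not pass the KO against WT tests given below, and Bad, which passed in LT-HSC, is not shown. The windows are from Bbc3 at chr7:16309333-16309632 (plus strand), Mcl1 at chr3:95658471-95658770 (plus strand), Bcl2 at chr1:106714241-106714540 (minus strand) and Bcl2l11 at chr2:128125788-128126087 (plus strand).
Bbc3: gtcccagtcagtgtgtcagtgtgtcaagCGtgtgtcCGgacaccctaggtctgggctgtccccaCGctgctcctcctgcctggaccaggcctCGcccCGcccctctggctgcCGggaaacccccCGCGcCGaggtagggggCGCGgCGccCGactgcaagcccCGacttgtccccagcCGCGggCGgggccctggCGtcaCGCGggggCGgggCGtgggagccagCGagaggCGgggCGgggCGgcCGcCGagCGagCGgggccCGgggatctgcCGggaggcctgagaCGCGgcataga
Mcl1: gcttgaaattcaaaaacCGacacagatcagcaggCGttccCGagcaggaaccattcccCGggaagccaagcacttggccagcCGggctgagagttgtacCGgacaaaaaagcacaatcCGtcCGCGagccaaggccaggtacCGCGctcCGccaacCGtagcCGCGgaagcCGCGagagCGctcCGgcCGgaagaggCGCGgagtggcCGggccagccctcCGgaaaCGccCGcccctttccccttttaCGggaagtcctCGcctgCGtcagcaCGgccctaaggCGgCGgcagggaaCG
Bcl2: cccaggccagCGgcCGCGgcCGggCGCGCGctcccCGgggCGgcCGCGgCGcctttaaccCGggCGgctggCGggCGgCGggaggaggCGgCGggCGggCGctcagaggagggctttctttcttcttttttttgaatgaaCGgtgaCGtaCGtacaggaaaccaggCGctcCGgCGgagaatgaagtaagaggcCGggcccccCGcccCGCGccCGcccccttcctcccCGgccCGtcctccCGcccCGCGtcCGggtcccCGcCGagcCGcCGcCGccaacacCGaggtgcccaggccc
Bcl2l11: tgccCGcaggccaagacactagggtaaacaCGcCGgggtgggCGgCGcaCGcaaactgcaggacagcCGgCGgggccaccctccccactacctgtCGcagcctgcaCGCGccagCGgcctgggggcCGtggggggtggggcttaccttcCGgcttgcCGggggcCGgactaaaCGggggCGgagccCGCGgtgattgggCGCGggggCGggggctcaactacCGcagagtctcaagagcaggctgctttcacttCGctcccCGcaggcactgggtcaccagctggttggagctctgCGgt
The GC box GGGCGG, searched on both strands, was found 7 times in the Bcl2 window, 5 times in Bbc3, 3 times in Bcl2l11 and once in Mcl1, and 35.9% of all windows hold it. It contains a CpG, so it overlaps the marked sites. The Foxo motif TGTTTAC, also searched on both strands, was found in the Bcl2l11 window and in none of the other 8 windows, and 3.52% of all windows hold it. No methylation was measured in these libraries, and a motif match is a description of the letters only.

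Levels of different members were compared as CPM per kb of merged exon length. Mcl1 was the most abundant member in all 4 groups, at 91.8 ± 1.31 CPM per kb in LT-HSC KO, 131 ± 15.8 in LT-HSC WT, 108 ± 4.57 in MPP KO and 113 ± 3.90 in MPP WT (SD, n = 2 each). Bax came next in LT-HSC KO, LT-HSC WT and MPP KO, at 21.3 ± 3.19, 23.3 ± 6.23 and 16.9 ± 2.21 CPM per kb, and Pmaip1 came next in MPP WT, at 21.98 ± 1.27 CPM per kb. In LT-HSC KO the order went on with Bcl2l1 (8.12 CPM per kb), Bid (7.12), Bbc3 (6.71), Bcl2l11 (6.46), Bcl2 (5.47), Bad (4.23) and Pmaip1 (1.13). The libraries of neighbours in that order overlapped from Bid through Bad, so the middle of the order is not resolved. In LT-HSC WT it went on with Bbc3 (22.3 CPM per kb), Bcl2 (10.5), Bcl2l1 (8.71), Bad (8.01), Bid (7.27), Bcl2l11 (4.08) and Pmaip1 (3.60). There Bbc3 overlapped with Bax, Bcl2 through Bid overlapped from neighbour to neighbour, and Bcl2l11 overlapped with Pmaip1. The MPP KO order after Bax was Bid (14.8 CPM per kb), Bcl2l11 (14.1), Bcl2 (13.3), Pmaip1 (13.3), Bbc3 (6.54), Bcl2l1 (6.43) and Bad (4.49), with overlap between neighbours from Bax through Pmaip1 and between Bbc3 and Bcl2l1. The MPP WT order after Pmaip1 was Bax (18.1 CPM per kb), Bcl2 (14.3), Bid (12.97), Bcl2l11 (11.3), Bbc3 (9.94), Bcl2l1 (6.39) and Bad (5.70), and no neighbours overlapped. Pmaip1 thus held the last place in both LT-HSC groups, the 6th in MPP KO and the 2nd in MPP WT.

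**Figure D1:**
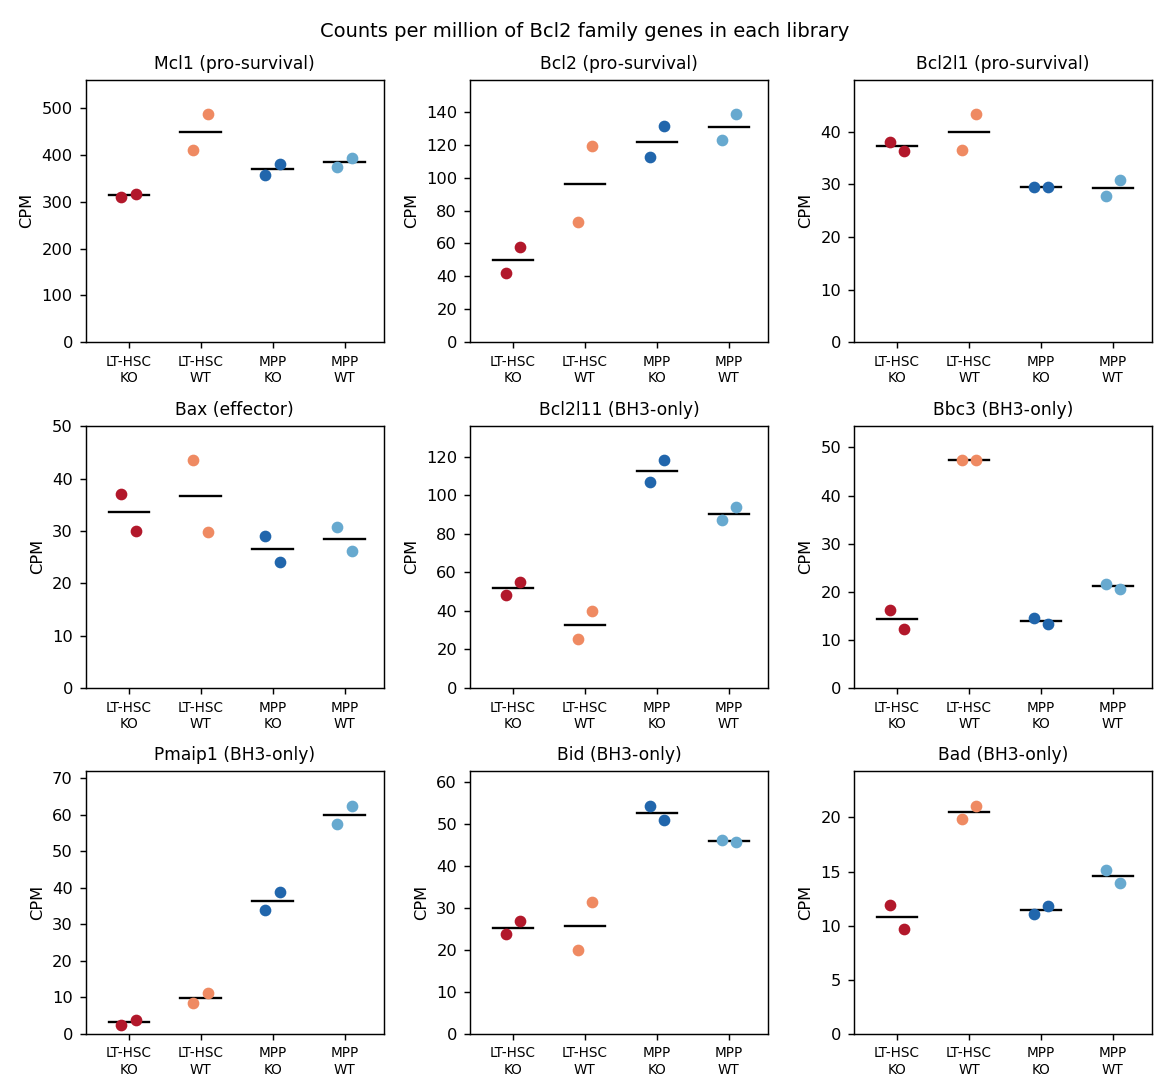
Level of each measured Bcl2 family gene in every library, in CPM (linear axes from 0), for the 4 groups; points are libraries and lines are the means of 2. Bbc3 lies at 12.3 to 16.2 CPM in LT-HSC KO and at 47.4 CPM in both LT-HSC WT libraries, and Pmaip1 lies at 2.43 to 3.76 CPM in LT-HSC KO and at 57.6 to 62.5 CPM in MPP WT.

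The comparison of LT-HSC KO with LT-HSC WT asks which family members differ in the stem cell libraries labelled Tet1 KO. The pro-survival genes Bcl2 and Mcl1 and the BH3-only genes Bbc3, Pmaip1 and Bad were lower in KO, Bcl2l1, Bax and Bid did not pass the test, and Bcl2l11 had the higher level in KO but missed the threshold. All 9 measured members passed the filter on low counts. Of them, 5 were called lower and 0 higher at an adjusted p under 0.05 (edgeR quasi-likelihood test, Benjamini-Hochberg over 15684 genes), where 10.9% of all tested genes were called lower, 22.5% higher and 33.4% in either direction. Without adjustment, 1 member was higher in the edgeR fit at p under 0.05, namely Bcl2l11, and DESeq2 called 0 members higher. In these bulk libraries a lower level in every cell and a smaller share of cells with the RNA cannot be told apart. After TMM scaling 6 members did not overlap between KO and WT libraries, the 5 called and Bcl2l11, and 66.4% of all tested genes did not. The median log2 fold change was 0.03 over all tested genes and -0.18 over genes with a mean log2 CPM of at least 6, the range that holds Mcl1 and Bcl2.

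Among the pro-survival members, Bcl2 (mm9 chr1:108434755-108610851, minus strand), named for its discovery at a lymphoma breakpoint, was counted 226 and 293 times in LT-HSC KO and 401 and 593 times in LT-HSC WT. Scaled to library size these were 42.2 and 57.9 CPM in KO and 73.2 and 119 CPM in WT. Both KO libraries lay below both WT libraries, and the WT pair was spread more widely. The log2 fold change was -0.94 (SE 0.24, 95% confidence interval -1.48 to -0.39, adjusted p = 0.0166). Because Bcl2 spans 176 kb, the reads spread along gene spans would account for 22.5% and 15.9% of its counts in the LT-HSC KO libraries, and with them subtracted the log2 fold change was -1.08 (adjusted p = 0.0314). Without LT-HSC KO replicate 1 the call was lost, at -0.75 (adjusted p = 0.162).

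Mcl1 (mm9 chr3:95462643-95467099, plus strand), which encodes a short-lived protein that is continuously made and degraded, was counted 1663 and 1603 times in LT-HSC KO and 2254 and 2426 times in LT-HSC WT. Its level was 313.6 ± 4.48 CPM in KO and 449.4 ± 53.9 CPM in WT (SD, n = 2 each), with no overlap between the groups. The log2 fold change was -0.52 (SE 0.15, 95% confidence interval -0.87 to -0.16, adjusted p = 0.0324). By the rate per kb of gene span, spread reads would make up 0.0773% and 0.0736% of its LT-HSC KO counts. The fit with them subtracted repeats the filter and scaling. The call was lost with the spread reads subtracted (-0.36, adjusted p = 0.137), and without LT-HSC KO replicate 1 (adjusted p = 0.234), LT-HSC KO replicate 2 (0.277) or LT-HSC WT replicate 2 (0.0871). Bcl2l1 (mm9 chr2:152593052-152657464, minus strand), whose product Bcl-xL keeps platelets and maturing red cells alive, was counted 204 and 184 times in LT-HSC KO and 200 and 216 times in LT-HSC WT. Its libraries overlapped, and the log2 fold change was -0.10 (95% confidence interval -0.54 to 0.35, adjusted p = 0.734). With the spread reads subtracted it was -0.08 (adjusted p = 0.808). Of the 3 pro-survival members in LT-HSC, 2 were called lower. The interval for Bcl2l1 holds the value of Mcl1 but not that of Bcl2 (-0.94). No test between members was run, so they are not shown to differ from each other.

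Among the BH3-only members, Bbc3 (mm9 chr7:16894965-16903554, plus strand) was counted 87 and 62 times in LT-HSC KO and 260 and 236 times in LT-HSC WT. That was 16.2 and 12.3 CPM in KO and 47.4 CPM in each WT library. The KO level was 0.301 of the WT level, a KO-over-WT log2 value of -1.73 (SE 0.24, 95% confidence interval -2.28 to -1.18, adjusted p = 0.00149). Bbc3 was the one member whose LT-HSC call held under all 9 alternatives, each library left out included, with adjusted p-values of at most 0.0112. With the spread reads subtracted the log2 fold change was -1.62 (adjusted p = 0.00926).

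Pmaip1 (mm9 chr18:66618258-66625204, plus strand), whose product Noxa binds Mcl-1, was counted 13 and 19 times in LT-HSC KO and 46 and 56 times in LT-HSC WT. These low counts correspond to 3.09 ± 0.939 CPM in KO and 9.82 ± 2.02 CPM in WT (SD, n = 2 each), with the groups apart. The log2 fold change was -1.66 (SE 0.42, 95% confidence interval -2.63 to -0.70, adjusted p = 0.0170). It was no longer called without LT-HSC KO replicate 1 (adjusted p = 0.168) or LT-HSC KO replicate 2 (0.0649), and with the spread reads subtracted it was -1.70 (adjusted p = 0.0495). Bad (mm9 chr19:7016351-7026388, plus strand), a member controlled by phosphorylation downstream of growth factors, was counted 64 and 49 times in LT-HSC KO and 109 and 105 times in LT-HSC WT. Its log2 fold change was -0.92 (SE 0.28, adjusted p = 0.0364), again with no overlap. That call was lost with DESeq2 (adjusted p = 0.0625), with the spread reads subtracted (0.0841), and without LT-HSC KO replicate 1 (0.115) or LT-HSC KO replicate 2 (0.251).

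Bcl2l11 (mm9 chr2:127951774-127988283, plus strand) had the opposite sign to Bbc3, Pmaip1 and Bad. It was counted 260 and 279 times in LT-HSC KO and 139 and 200 times in LT-HSC WT, or 51.8 ± 4.67 CPM in KO and 32.8 ± 10.5 CPM in WT (SD, n = 2 each). Both KO libraries lay above both WT libraries. The log2 fold change was 0.67 (SE 0.23, 95% confidence interval 0.15 to 1.19), and its adjusted p of 0.0527 stood just outside the threshold. It was called without LT-HSC WT replicate 2 (0.93, adjusted p = 0.00289), and with LT-HSC WT replicate 1 left out the value was 0.40 (adjusted p = 0.241), so the size depended on the WT library. With the spread reads subtracted it was 0.77 (adjusted p = 0.0618). Bid (mm9 chr6:120841948-120866871, minus strand), which links caspase-8 to the mitochondrion, was counted 127 and 136 times in LT-HSC KO and 110 and 157 times in LT-HSC WT. Bax (mm9 chr7:52717065-52722268, minus strand), the effector, was counted 199 and 152 times in LT-HSC KO and 239 and 148 times in LT-HSC WT. Neither was separated between the groups, with log2 fold changes of -0.02 (95% confidence interval -0.60 to 0.56) for Bid and -0.14 (-0.75 to 0.48) for Bax. With the spread reads subtracted both signs turned, to 0.06 (-0.56 to 0.67) for Bid and 0.01 (-0.63 to 0.64) for Bax. By the rate per kb of gene span, these reads would make up 0.754% and 0.907% of the Bax counts in LT-HSC KO. That fit repeats the filter and scaling.

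**Figure D2:**
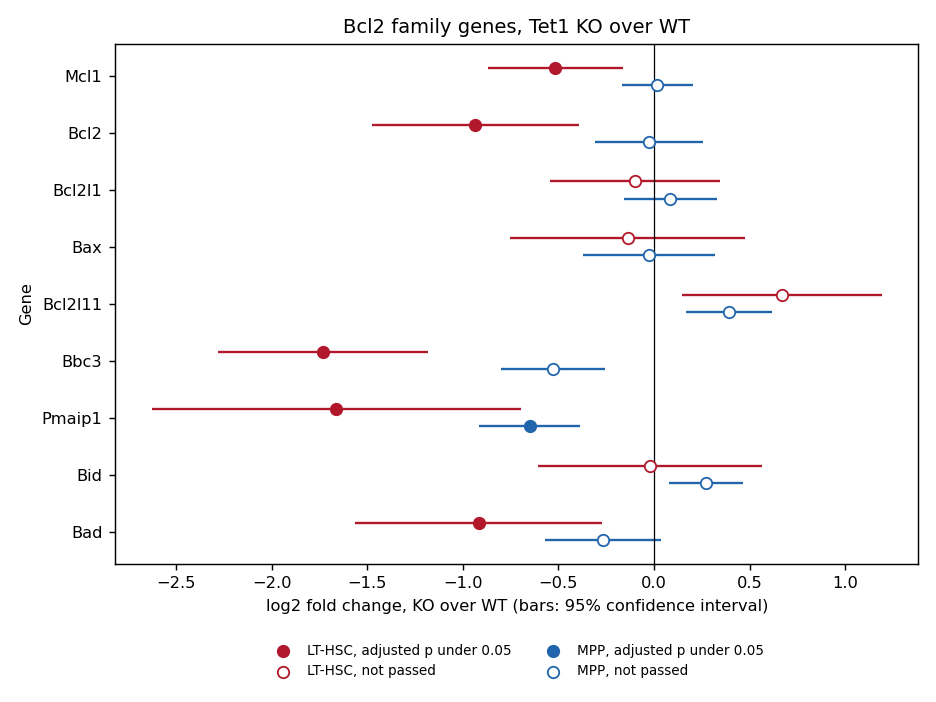
Log2 fold change of each measured member, KO over WT, in LT-HSC (red) and MPP (blue), with 95% confidence intervals from the edgeR fit; filled points passed an adjusted p under 0.05. The LT-HSC values run from -1.73 for Bbc3 to 0.67 for Bcl2l11, and the MPP values run from -0.65 for Pmaip1 to 0.39 for Bcl2l11.

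In MPP, KO against WT, the larger differences were in BH3-only genes: Pmaip1 was lower in KO and was the one gene that passed, Bbc3 had the lower and Bcl2l11 the higher level in KO without passing, and the pro-survival genes lay near 0 on the log2 scale. Of the 9 members, 1 was called lower and 0 higher, where 2.46% of the 14902 tested genes were called lower, 4.74% higher and 7.2% in either direction. The 1 call was Pmaip1, counted 423 and 480 times in MPP KO and 687 and 752 times in MPP WT, a level of 36.3 ± 3.45 CPM in KO and 60.1 ± 3.48 CPM in WT (SD, n = 2 each). Its log2 fold change was -0.65 (SE 0.10, 95% confidence interval -0.91 to -0.39, edgeR adjusted p = 0.0313). The call depended on all 4 libraries: the adjusted p was 0.122 and 0.0722 without MPP KO replicate 1 and 2, and 0.324 and 0.315 without MPP WT replicate 1 and 2. With no filter on low counts it was 0.0519. Without either MPP WT library, edgeR called 0 genes of the whole table, with 2119 and 2220 genes at an unadjusted p under 0.05.

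Bbc3 was counted 181 and 165 times in MPP KO and 258 and 248 times in MPP WT, with no overlap, and a KO-over-WT log2 value of -0.53 (SE 0.11, 95% confidence interval -0.80 to -0.25, adjusted p = 0.0528). Bcl2l11 was counted 1339 and 1470 times in MPP KO and 1038 and 1132 times in MPP WT, also with no overlap, and a KO-over-WT log2 value of 0.39 (SE 0.09, 95% confidence interval 0.17 to 0.62, adjusted p = 0.0646). Both lay in the same direction as in LT-HSC, and both missed the threshold. Without adjustment, 2 members were higher in the edgeR fit at p under 0.05, namely Bcl2l11 and Bid, and DESeq2 called 0 members higher.

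Bid was counted 681 and 632 times in MPP KO and 552 and 551 times in MPP WT (log2 fold change 0.27, SE 0.08, adjusted p = 0.103), and Bad was counted 139 and 147 times in MPP KO and 181 and 168 times in MPP WT (-0.27, SE 0.12, adjusted p = 0.239). After TMM scaling, 6 members did not overlap between the genotypes, the 5 BH3-only genes and, narrowly, Bcl2l1, and 55.3% of all tested MPP genes did not. Mcl1 was counted 4475 and 4712 times in MPP KO and 4475 and 4740 times in MPP WT (log2 fold change 0.02, 95% confidence interval -0.17 to 0.20), and Bcl2 was counted 1405 and 1628 times in MPP KO and 1468 and 1669 times in MPP WT (-0.03, 95% confidence interval -0.31 to 0.26). The values were 0.09 (-0.16 to 0.33) for Bcl2l1 and -0.03 (-0.37 to 0.32) for Bax, whose libraries also overlapped in CPM.

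Whether the KO difference of a member differed between LT-HSC and MPP was tested with the interaction of population and genotype over all 8 libraries. Bbc3, Pmaip1 and Mcl1 passed, each more negative in LT-HSC than in MPP, so 3 of 9 members were called lower and 0 higher, where 8.5% of the 16551 tested genes were called lower, 13.6% higher and 22.1% in either direction. At an unadjusted p under 0.05, 0 members were higher, and DESeq2 called 0 higher. The difference of log2 fold changes, LT-HSC minus MPP, was -1.21 for Bbc3 (SE 0.24, edgeR adjusted p = 0.0109), -1.02 for Pmaip1 (SE 0.31, adjusted p = 0.0489) and -0.54 for Mcl1 (SE 0.15, adjusted p = 0.0315). For Bcl2 it was -0.92 (95% confidence interval -1.62 to -0.21, adjusted p = 0.0664) and for Bad -0.66 (-1.23 to -0.09, adjusted p = 0.0915). Neither passed in this fit. The Bcl2 value depended on the LT-HSC WT libraries, at -1.21 (adjusted p = 0.0198) without replicate 1 and -0.57 (0.132) without replicate 2, and it passed with DESeq2 (adjusted p = 0.0371). For Bcl2l11 it was 0.27 (-0.31 to 0.84), for Bid -0.30 (-0.90 to 0.29), for Bcl2l1 -0.19 (-0.62 to 0.24) and for Bax -0.12 (-0.84 to 0.60).

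The Bbc3 interaction held under 11 of 13 alternatives and was lost without MPP KO replicate 1 (adjusted p = 0.0579) or MPP WT replicate 2 (0.0566). Leaving out LT-HSC KO replicate 1 or 2 ended the Mcl1 call (0.0781 and 0.0671), as did leaving out any MPP library (0.0870 to 0.125) or subtracting the spread reads (0.0935). The Pmaip1 call ended with DESeq2 (0.0621), with the spread reads subtracted (0.0583), and without LT-HSC KO replicate 1 (0.168), LT-HSC WT replicate 2 (0.0928) or any MPP library (0.0821 to 0.131).

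The proportions of the members within a library also differed between the groups. These are descriptions that use the same counts as the tests above. Bcl2l11 had 2.99 and 4.50 counts per Bbc3 count in LT-HSC KO against 0.535 and 0.847 in LT-HSC WT. In MPP the ratio was 7.40 and 8.91 in KO and 4.02 and 4.56 in WT. By counts, Bbc3 was thus above Bcl2l11 in both LT-HSC WT libraries and below it in the other 6. Bcl2l11 has the longer exons, and per kb Bbc3 was also the higher in LT-HSC KO replicate 1, at 7.65 CPM per kb for Bbc3 and 6.05 for Bcl2l11, but not in replicate 2 (5.77 for Bbc3 and 6.87 for Bcl2l11).

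As a share of all BH3-only counts, Bcl2l11 made up 47.2% and 51.2% in LT-HSC KO against 20.9% and 26.5% in LT-HSC WT, and Bbc3 15.8% and 11.4% in LT-HSC KO against 39.2% and 31.3% in LT-HSC WT. The LT-HSC KO shares of Bcl2l11 were close to those in MPP KO (48.5% and 50.8%), and MPP WT had 38.2% and 39.7%. The Pmaip1 share set the populations apart, at 2.36% and 3.49% in LT-HSC KO, 6.93% and 7.43% in LT-HSC WT, 15.3% and 16.6% in MPP KO and 25.3% and 26.4% in MPP WT.

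**Figure D3:**
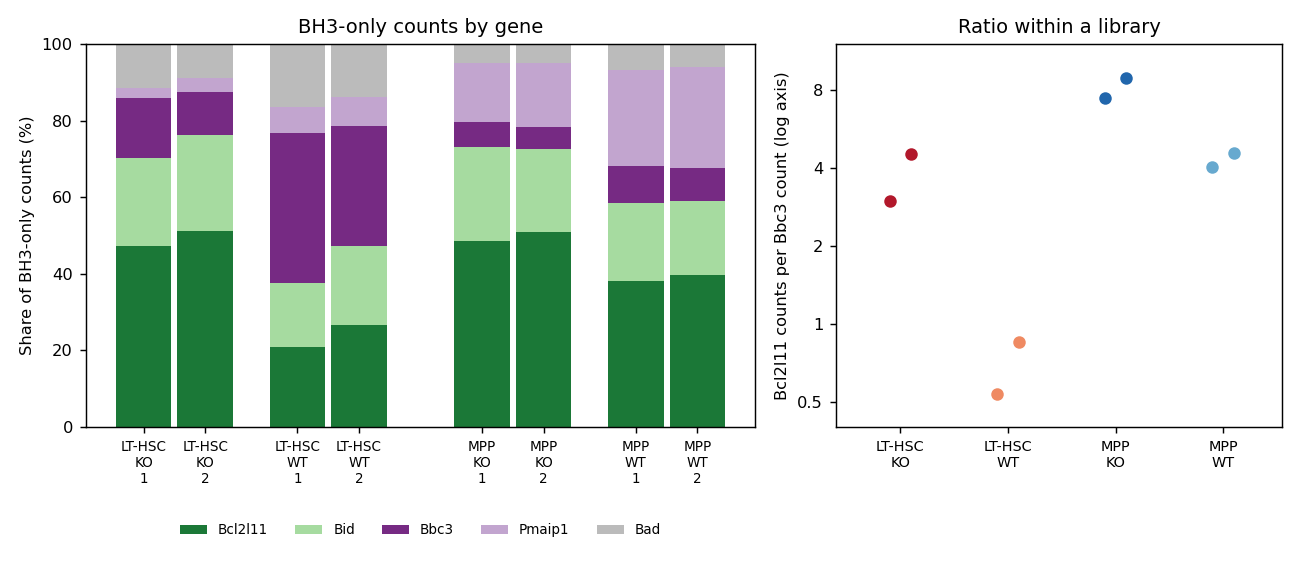
Left, the share of each BH3-only gene in the summed BH3-only counts of every library, in percent; right, Bcl2l11 counts per Bbc3 count in every library on a log axis, with KO left of WT within each population. The ratio is below 1 in both LT-HSC WT libraries, at 0.535 and 0.847, and above 2.9 in the other 6.

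Ratios of a pro-survival gene to a BH3-only partner differed as well. Bcl2 had 0.869 and 1.05 counts per Bcl2l11 count in LT-HSC KO against 2.88 and 2.97 in LT-HSC WT, while MPP KO gave 1.05 and 1.11 and MPP WT 1.41 and 1.47. Mcl1 had 128 and 84.4 counts per Pmaip1 count in LT-HSC KO against 49.0 and 43.3 in LT-HSC WT, while MPP KO gave 10.6 and 9.82 and MPP WT 6.51 and 6.30. So Bcl2 per Bcl2l11 count was lower and Mcl1 per Pmaip1 count higher in KO, in both populations. Bcl2l11 itself had the higher and Pmaip1 the lower level in KO, so these directions depend on the partner chosen. Bcl2 per count of the effector Bax overlapped between KO and WT in both populations. It was 1.14 and 1.93 in LT-HSC KO and 1.68 and 4.01 in LT-HSC WT. In MPP the WT libraries lay between the KO values of 3.87 and 5.44. Other BH3-only partners were not compared. Summed over all measured members, the ratio of pro-survival to pro-apoptotic counts was 2.79 and 2.98 in LT-HSC KO against 3.16 and 3.59 in LT-HSC WT, while MPP KO gave 2.00 and 2.10 and MPP WT 2.04 and 2.14. Per kb of exon the ratio in LT-HSC KO was 2.10 and 2.41 and that in LT-HSC WT 1.96 and 2.45, which overlap, so a lower summed ratio in LT-HSC KO depended on counting long genes at their full weight. In MPP the ratio per kb was 1.75 and 1.90 in KO and 1.60 and 1.73 in WT, higher in KO without overlap, whereas the count ratios overlapped.

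The WT libraries show how the family differs between stem cells and progenitors where Tet1 is present. In LT-HSC WT against MPP WT, the BH3-only genes were divided: Bbc3 was higher, and Pmaip1, Bcl2l11 and Bid were lower. The calls were 1 higher and 3 lower of 9, where 17.4% of 14660 tested genes were called higher, 16.9% lower and 34.3% in either direction. Bbc3 averaged 47.4 ± 0.0172 CPM in LT-HSC WT and 21.1 ± 0.717 CPM in MPP WT (SD, n = 2 each), an LT-HSC-over-MPP log2 value of 1.19 (SE 0.15, edgeR adjusted p = 0.00312). Pmaip1 averaged 9.82 ± 2.02 CPM in LT-HSC WT and 60.1 ± 3.48 CPM in MPP WT, an LT-HSC-over-MPP log2 value of -2.60 (SE 0.18, adjusted p = 0.000362). These 2 genes, both known p53 targets, thus lay in opposite directions between the populations.

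Bcl2l11 averaged 32.8 ± 10.5 CPM in LT-HSC WT and 90.6 ± 5.01 CPM in MPP WT (SD, n = 2 each; log2 fold change -1.46, SE 0.20, adjusted p = 0.00400). Bid averaged 25.8 ± 8.11 CPM in LT-HSC WT and 46.0 ± 0.335 CPM in MPP WT (-0.83, SE 0.21, adjusted p = 0.0260), a call lost without MPP WT replicate 1 (0.0755) or replicate 2 (0.0847). The other 5 members did not pass. Their log2 fold changes were 0.46 for Bcl2l1 (95% confidence interval 0.08 to 0.85), 0.51 for Bad (0.08 to 0.95), 0.40 for Bax (-0.20 to 0.99), 0.24 for Mcl1 (-0.07 to 0.55) and -0.44 for Bcl2 (-0.95 to 0.07). Without LT-HSC WT replicate 2, Bcl2 was called lower (-0.80, adjusted p = 0.00880) and Bax higher (0.66, adjusted p = 0.0226), and without LT-HSC WT replicate 1 Bcl2l1 was called higher (0.52, adjusted p = 0.0459). LT-HSC libraries held fewer counts than MPP libraries, and the 2 tables were scaled together here from raw counts.

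In LT-HSC KO against MPP KO, no member was called higher and 5 of 9 were called lower, where 27.2% of 16150 tested genes were called higher, 23.6% lower and 50.8% in either direction. At an unadjusted p under 0.05, 0 members were higher, and DESeq2 also called 0 higher. The lower members were Pmaip1 (3.09 ± 0.939 CPM in LT-HSC KO and 36.3 ± 3.45 CPM in MPP KO, SD, n = 2 each, log2 fold change -3.70, SE 0.24, edgeR adjusted p = 3.01e-05), Bcl2 (-1.43, SE 0.18, adjusted p = 0.000511), Bcl2l11 (-1.27, SE 0.13, adjusted p = 0.000220), Bid (-1.20, SE 0.14, adjusted p = 0.000466) and Mcl1 (-0.38, SE 0.11, adjusted p = 0.0281). The Mcl1 call was lost when any library was left out (adjusted p 0.0722 to 0.327) and with the spread reads subtracted (0.168). Bbc3, with 14.2 ± 2.82 CPM in LT-HSC KO and 13.9 ± 0.827 CPM in MPP KO, had a log2 fold change of -0.11 (95% confidence interval -0.61 to 0.39).

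The KO libraries thus had Bbc3 at overlapping levels in the 2 populations, whereas in WT it was 2.28-fold higher in LT-HSC. The KO and WT comparisons of populations come from separate fits on different libraries, and the test that bears on their difference for Bbc3 is the interaction over all 8 libraries given above. Beyond the interaction no difference between them was tested.

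**Figure D4:**
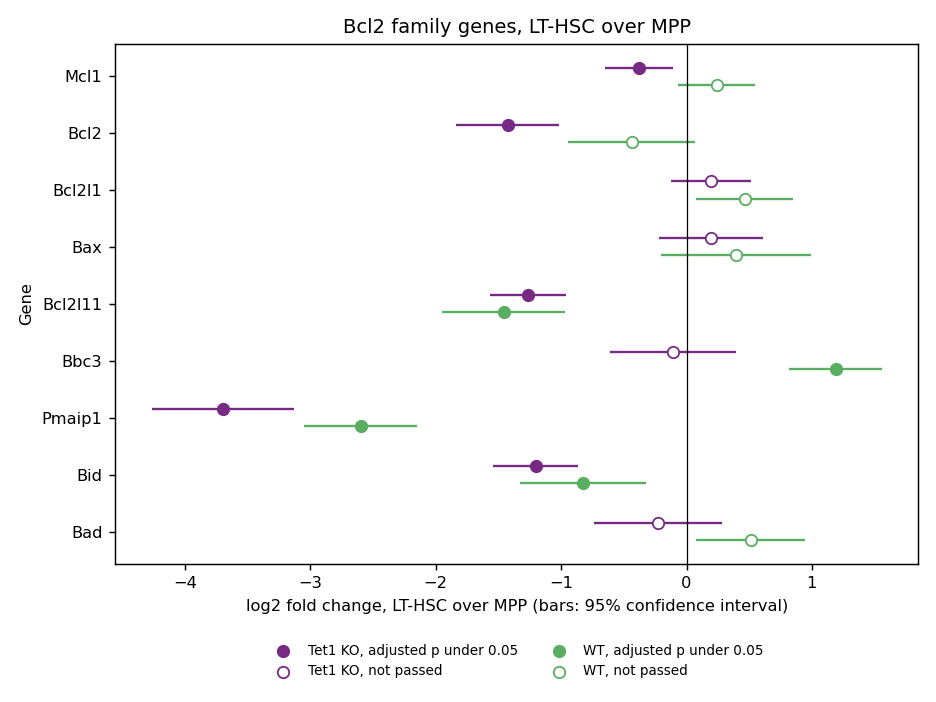
Log2 fold change of each measured member, LT-HSC over MPP, in Tet1 KO (purple) and WT (green) libraries, with 95% confidence intervals from the edgeR fits; filled points passed an adjusted p under 0.05. Pmaip1 is lowest in both, at -3.70 and -2.60, and Bbc3 is at -0.11 in KO and 1.19 in WT.

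The genes around the family were counted from lists. In LT-HSC, 24 of the 76 tested list genes were called (31.6%, against 33.4% of all tested genes), and in MPP 8 of 78 (10.3%, against 7.2%), so these totals lay near the share over all genes. Most of these genes did not pass in either population, and the calls in LT-HSC went both ways. They include the mitochondrial gene Bcl2l13, higher in KO, and the cell cycle inhibitor gene Cdkn1a and several death receptor genes, lower in KO. Over all tested genes, 10.9% were called lower and 22.5% higher in LT-HSC, and 2.46% lower and 4.74% higher in MPP. These shares bear on each list count given here. In LT-HSC, 5 of the 13 tested death receptor genes were called lower and 0 higher (median log2 fold change -0.59, against 0.03 over all genes). They included Tnfrsf1a, the main TNF receptor (380 and 346 counts in KO, 680 and 566 in WT, log2 fold change -0.78, edgeR adjusted p = 0.00825), its adaptor Tradd (-0.91, adjusted p = 0.0411), and the necroptosis kinase Ripk3 (-0.87, adjusted p = 0.0109) with its substrate Mlkl (-0.81, adjusted p = 0.0170). At an unadjusted p under 0.05, 0 of these genes were higher and 7 lower, and DESeq2 called 0 higher and 3 lower. The fifth called gene was Tnf itself, left out of the rule for named genes by a mean count under 20.

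Of the 16 tested apoptosome and caspase genes in LT-HSC, 14 did not pass (median log2 fold change -0.01). Parp1, a DNA repair enzyme that caspases cleave, was called lower (-0.59, adjusted p = 0.0403). Of the 6 tested other family genes, 1 was higher and 1 lower (median -0.15). Bcl2l13, a mitochondrial family member, was counted 698 and 719 times in KO and 364 and 378 times in WT (0.94, SE 0.16, adjusted p = 0.00276), and its call held under all 9 alternatives. Of the 9 inhibitor of apoptosis (IAP) genes, 2 were lower and 0 higher (median -0.42): Naip5, a sensor of bacterial flagellin (-0.85, adjusted p = 0.0133), and Birc3, a ubiquitin ligase of TNF signalling (-0.56, adjusted p = 0.0281). At an unadjusted p under 0.05, 0 IAP genes were higher and 4 lower, and DESeq2 called 0 higher and 1 lower. Naip5 has close copies in the genome that could share its reads, so its values are uncertain.

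The p53 target list moved both ways in LT-HSC, with 4 of 14 tested genes higher, 3 lower and 7 not passed (median 0.57). Cdkn1a, which encodes the cell cycle inhibitor p21, was counted 351 and 418 times in KO and 1359 and 1572 times in WT (log2 fold change -1.93, SE 0.18, adjusted p = 0.000267), and held under all 9 alternatives. The kinase gene Plk3 was also lower (-1.21, adjusted p = 0.0106), and Zmat3 (1.11, adjusted p = 0.0295) and Ei24 (1.11, adjusted p = 0.0125) were higher. Bbc3 and Pmaip1, members described above, are classed with the same targets and were lower. Of the 10 p53 and Foxo regulators, 1 was higher and 2 lower (median -0.07): Foxo1, a factor that can activate Bcl2l11 (-0.83, adjusted p = 0.0304), and Mdm2, the ubiquitin ligase of p53 (-0.60, adjusted p = 0.0199). Of the 8 tested genes on the list called turnover of Mcl1 and Bim, 1 was higher and 2 lower (median -0.15). The called genes were Btrc, a ubiquitin ligase subunit (0.70, adjusted p = 0.0167), Fbxo25 (-1.33, adjusted p = 0.0120) and the kinase gene Mapk8 (-0.55, adjusted p = 0.0483). Whether Fbxo25 or the others act on Mcl1 or Bim protein was not tested.

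Among the list genes named for LT-HSC, 15 lost their call when a library was left out, with highest adjusted p-values of 0.0830 to 0.302. For Ei24 this was LT-HSC KO replicate 1 (0.134) and for Plk3 LT-HSC KO replicate 2 (0.0830). The calls of the other 13 were lost without either LT-HSC KO library, and those of Btrc, Mapk8, Parp1 and Zmat3 also without LT-HSC WT replicate 1 and that of Foxo1 without LT-HSC WT replicate 2. With the spread reads subtracted, Parp1 (adjusted p = 0.136), Tradd (0.103), Birc3 (0.100), Mapk8 (0.0897), Mdm2 (0.0769), Zmat3 (0.0621) and Foxo1 (0.0521) were no longer called. Birc3, Tradd and Mapk8 were not called by DESeq2, nor Foxo1, Mapk8, Parp1 and Tradd with no filter on low counts.

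In MPP the edgeR test called 0 of the 16 apoptosome and caspase genes and 0 of the 8 turnover genes, with 0 also before adjustment and 0 called by DESeq2, and 8 genes in all were called. Trp53inp1, a p53 target, was counted 4259 and 5177 times in KO and 1883 and 2098 times in WT (log2 fold change 1.27, SE 0.12, edgeR adjusted p = 0.0104). Of the 13 tested p53 targets, 1 was higher and 2 lower (median 0.03), namely Cdkn1a, counted 1735 and 1836 times in KO and 2691 and 2754 times in WT (-0.59, adjusted p = 0.0157), and Perp, which was first described as a p53 effector (-1.04, adjusted p = 0.0423). Cdkn1a was thus called lower in KO in both populations.

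Of the 14 tested death receptor genes in MPP, 1 was higher and 0 lower (median -0.06), with 1 higher and 4 lower before adjustment at p under 0.05, and DESeq2 called 1 higher and 0 lower. It was Fas, the receptor that starts extrinsic apoptosis, counted 55 and 67 times in KO and 10 and 15 times in WT (2.30, SE 0.30, adjusted p = 0.0198). Of the 8 other family genes, the BH3-only gene Bmf was higher, counted 351 and 350 times in KO and 201 and 216 times in WT (0.77, adjusted p = 0.0174), and Bcl2l14 was lower with 10 and 15 KO counts and 43 and 41 WT counts (-1.72, adjusted p = 0.0409). Naip5 was higher among the 9 IAP genes (0.71, adjusted p = 0.0280), and Trp73, a p53 relative, among the 10 regulators (1.90, adjusted p = 0.0353). All 8 calls were lost without either MPP WT library, with highest adjusted p-values of 0.304 to 0.332, and all but that of Trp53inp1 also without either MPP KO library. Bcl2l14, Perp and Trp73 were not called by DESeq2, and these and Naip5 were not called with no filter on low counts.

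**Figure D5:**
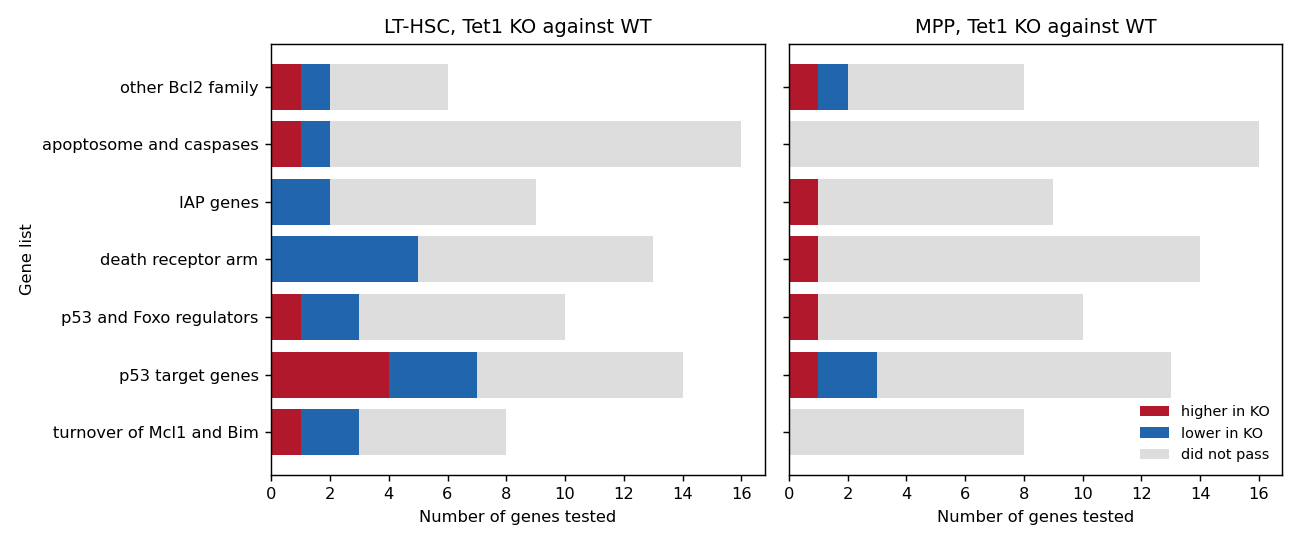
Number of tested genes of each list called higher in KO (red), called lower in KO (blue) or not passed (grey) at an adjusted p under 0.05, in LT-HSC (left) and MPP (right). In LT-HSC the death receptor arm has 5 lower and 0 higher of 13 and the p53 targets 4 higher and 3 lower of 14, and in MPP no apoptosome, caspase or turnover gene passed.

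For the pro-survival members, the genes with the most similar pattern over the 8 libraries were found by the root mean square difference of gene-centred log2 CPM among 16551 genes. Nearest to Mcl1, whose own range was 0.63, were Zfp36l2 (0.0462), Aff4 (0.0490) and Fam65b (0.0594). Nearest to Bcl2, with a range of 1.76, were Ypel5 (0.0690), 3230401D17Rik (0.0885) and Slc26a2 (0.0983), and nearest to Bcl2l1, with a range of 0.58, were Polb (0.0383), Slc9a8 (0.0559) and Zcchc6 (0.0601). The libraries of a group share their cells' state, so these 8 points are not independent.

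In the authors' deposited table for LT-HSC, 4 members were under a false discovery rate of 0.05: Bbc3 (4.13e-06), Pmaip1 (0.000432), Bcl2 (0.0118) and Bad (0.0274). The same deposited table gave Mcl1 a false discovery rate of 0.195, so its call differed between that table and the edgeR fit reported here. In the authors' deposited table for MPP 0 members were under 0.05, and the lowest value was that of Pmaip1, at 0.0636.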

How the data were processed

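Poly(A) RNA from 8 mouse libraries was sequenced with paired-end reads of 50 bp, per the labels' protocols, and was processed with CASAVA and TopHat on mm9, per the submitters' processing notes. Tool versions, the counting tool, its strand setting and the annotation were not stated in these sources. The authors deposited 1 table per population, with raw counts per gene and, per the file headers, their own log2 fold change and log2 CPM, a likelihood ratio score, and p-values with false discovery rates. The tables list 19685 genes for LT-HSC and 18904 for MPP.

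The deposited counts were fitted with edgeR 4.0.16 in R 4.3.3 (filterByExpr, TMM, quasi-likelihood test, Benjamini-Hochberg over all tested genes, threshold 0.05), after each script was tested on simulated data. The standard error is the log2 fold change over the square root of the F statistic. CPM used the plain library total, and lengths per kb are merged GENCODE exons on GRCm38, not the authors' build. Spread reads were estimated per library from genes of at least 100 kb with at most 3 summed WT counts. Alternatives were DESeq2 size factors, no filter, DESeq2 1.42.0, subtraction of spread reads, a replicate block and leaving out each library. Each comparison has 2 libraries per group, so an exact permutation test of single values could not pass the threshold, and low counts carry counting error beyond it. The members and lists were chosen with earlier results of these data known. Named were all members, Tet1, up to 4 called genes per list and comparison by fold change averaging at least 20 normalized counts, and the 3 nearest genes for each pro-survival member. One gene that this rule would name is not reported here.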

Additional observations from a re-analysis of the deposited data

Results flagged for a closer look

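The KO over WT log2 fold change differed between the populations, by the test of the interaction itself, for Bbc3 (LT-HSC minus MPP -1.21), Pmaip1 (-1.02) and Mcl1 (-0.54). The Mcl1 and Pmaip1 calls ended with the spread reads subtracted and the Bbc3 call did not. That fit repeats the filter and scaling, and gave -0.39 for Mcl1, -1.06 for Pmaip1 and -1.10 for Bbc3. The calls for all of these genes depended on single libraries, as given above. For Bbc3 the log2 fold change was -1.73 in LT-HSC and -0.53 in MPP, so both populations lay on the same side and LT-HSC by the wider margin. For Pmaip1 the values were -1.66 in LT-HSC and -0.65 in MPP. For Mcl1 they were -0.52 in LT-HSC and 0.02 in MPP.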

How the results depend on the processing

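No result changed sign and stayed called. With DESeq2 size factors in edgeR no count moved by over 1.5 times. Replicate numbers are shared between the groups, but the labels tie them to no animal or day. Deviations of same-numbered libraries correlated at 0.424 in LT-HSC and 0.683 in MPP over only 2 pairs, so the pairing is a hint and the block is an alternative. Under the replicate block the genes called were 8824 against 5246 (LT-HSC KO against WT), 7234 against 1073 (MPP), 6897 against 3663 (interaction) and 7819 against 5022 (WT LT-HSC against WT MPP). The members called higher under the block were 1, 2 and 3 in LT-HSC, MPP and WT LT-HSC against WT MPP, the members called lower were 3 in MPP and 5 for the interaction, and the list genes called were 45 against 24, 38 against 8, 36 against 18 and 42 against 26 in the same order of comparisons. With no filter on low counts MPP had 575 genes, 0 lower members and 4 list genes called. With spread reads subtracted the genes called were 2473 in LT-HSC and 2376 for the interaction (51.5% of them higher, against 61.6%), and the members called lower were 3 in LT-HSC and 1 for the interaction. Leaving out each library in turn gave, for LT-HSC KO against WT, 2325 to 6756 genes, 0 to 1 higher and 1 to 5 lower members and 5 to 28 list genes. For MPP it gave 0 to 268 genes, 0 lower members and 0 to 1 list genes. For the interaction it gave 1132 to 4237 genes, 0 to 4 lower members and 9 to 24 list genes. For WT LT-HSC against WT MPP it gave 2464 to 7069 genes, 1 to 2 higher members and 9 to 40 list genes, and for KO LT-HSC against KO MPP 5370 to 6542 genes and 18 to 31 list genes. The cause of these moves was not tested, beyond the smaller number of libraries. A library left out leaves a group with 1 library, assumed to vary like the others. TMM scaling of the levels left each group's summed CPM within its SD, but single members moved further. Bid in MPP WT went from 46.0 ± 0.335 to 44.9 CPM and Bcl2l1 in MPP KO from 29.5 ± 0.0602 to 30.3 CPM (SD, n = 2 each). With that scaling the mean of each measured member rose in MPP KO and fell in MPP WT.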
